A study of Homo sapiens with 7 samples.

Results

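The genes described here are 9 genes of MHC class I antigen presentation: the class I heavy chain genes HLA-B, HLA-C, HLA-E and HLA-F, the peptide transporter genes TAP1 and TAP2, the loading factor TAPBP, the regulator NLRC5 and the trimming enzyme ERAP1. They were taken by symbol from the 19978 genes of the deposited table, and earlier results of these data were known when they were chosen. All 9 passed the expression filter, with 14863 genes tested in all. Poly(A) RNA was sequenced from HEK-293, an established human embryonic kidney cell line, which was grown in DMEM and sampled after 48 h. The control group (n = 2) was kept at pH 7.4 with DMSO, the vehicle of the inhibitor. The SRPIN340 group (n = 2) was kept at pH 7.4 with 10 µM SRPIN340, an inhibitor of the SR protein kinases. The acidosis group (n = 3) was kept in medium acidified to pH 6.6 with HCl. Per the paper, the SRPIN340 and acidosis media held DMSO at the same low percentage as control. All groups thus share the cell line, the base medium, DMSO and the time, and the data describe this 1 line only.

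MHC class I molecules are cell surface complexes of a polymorphic heavy chain, an invariant light chain and a short peptide, by which nearly all nucleated cells show samples of their proteins to CD8 T cells and natural killer cells. Peptides made mainly by the proteasome are pumped into the endoplasmic reticulum by the TAP1-TAP2 transporter, trimmed there by ERAP1 and loaded onto heavy chains with the help of tapasin, the product of TAPBP. In many cells, interferon acts on the genes of this pathway through interferon regulatory factors, and NLRC5 acts through a protein assembly on the upstream promoter elements of class I genes.

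The libraries held 23695530 and 24110460 counts in control, 21788457 to 22425450 with SRPIN340 and 13615816 to 21370143 in acidosis, so that genes with few reads were measured less precisely in acidosis. The lowest of the 9 genes, NLRC5, still held 214 to 477 counts in each sample. Levels are given as CPM, which sets each count against the total of its library, and the total is scaled by TMM, a factor that makes the typical gene equal between samples. Mean TMM factors were 1.18 in control, 1.21 with SRPIN340 and 0.79 in acidosis, and in acidosis against control all tested genes had a median log2 fold change of -0.052 with them and -0.63 with library totals only. Fold changes are therefore relative to the typical gene, and fewer cells that transcribe a gene cannot be told apart from less RNA of it per cell. Of 8 marker genes of blood and endothelial cells, CD3E was at 0 in all 7 samples, and the 8 together summed to 2.25 to 3.09 CPM in control and 3.86 to 6.97 CPM in acidosis. Of the 5 blood and endothelial markers tested, 3 were called higher in acidosis (PTPRC, CD14 and ITGAM, named after their values were seen) and 0 passed with library totals only. The others tested, CD8A and PECAM1, were at log2 fold changes of -0.48 and -1.35 and did not pass. Counts in acidosis were few, at 7 to 12 for PTPRC, 12 to 35 for CD14 and 1 to 34 for ITGAM, whose groups overlapped. The part of these markers in the results was not tested. The 8 kidney progenitor and epithelial markers summed to 343 to 363 CPM in control and 412 to 421 CPM in acidosis, and of these 1 passed the test higher and 5 lower in acidosis.

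In GENCODE release 44 (GRCh38), 7 of the 9 genes lie in the MHC on the short arm of chromosome 6. HLA-F (ENSG00000204642.14, chr6:29722775-29738528) and HLA-E (ENSG00000204592.9, chr6:30489509-30494194) are on the plus strand. HLA-C (ENSG00000204525.18, chr6:31268749-31272130), HLA-B (ENSG00000234745.14, chr6:31353872-31367067), TAP2 (ENSG00000204267.19, chr6:32821833-32838739), TAP1 (ENSG00000168394.13, chr6:32845209-32853816) and TAPBP (ENSG00000231925.14, chr6:33299694-33314284) are on the minus strand. ERAP1 (ENSG00000164307.13) is at chr5:96760810-96808100 on the minus strand and NLRC5 (ENSG00000140853.17) at chr16:56989485-57083531 on the plus strand. The gene-level values sum over all exons, UTRs included. TAP2 is covered over all of its 16907 bases by a second protein-coding gene model on the same strand, which could take part of its reads. ERAP1 overlaps CAST on the opposite strand over 18786 bases, TAP1 overlaps the gene model of PSMB9 on the opposite strand over 8608 bases, and the sources used here do not state whether the counting used strand.

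The heavy chain genes are close paralogs. The coding sequences of HLA-B and HLA-C were identical at 92.5% of aligned bases, and the other pairs among HLA-B, HLA-C, HLA-E and HLA-F at 82.6% to 86.8%, whereas TAP1 and TAP2 matched at 59.3%. Of all stretches of 31 bases in a coding sequence, 11.7% in HLA-B, 12.5% in HLA-C, 9.29% in HLA-E and 4.48% in HLA-F occurred in at least 1 of the other 3. Class I genes also carry many alleles, and those of HEK-293 can differ from the reference transcripts. The value of a single heavy chain gene is therefore uncertain, and a sum over the heavy chain genes is given beside them.

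The promoters show what the genes have in common. RefSeq promoter sequence (GRCh38.p14) was at hand for 7 of the 9 genes, without HLA-E and NLRC5. The stretches below run 5′ to 3′ on the strand of the gene and end before the transcription start. Capitals mark matches, on either strand, to AANNGAAA (the core of sites for interferon regulatory factors), CCAAT (the NF-Y box), TGACG (the core of cyclic AMP response elements) or the NF-kB consensus. They are shown because these are the elements by which the regulators measured further on are known to act.
HLA-B, chr6:31357219-31357359, minus strand, 180 to 40 bases before the start: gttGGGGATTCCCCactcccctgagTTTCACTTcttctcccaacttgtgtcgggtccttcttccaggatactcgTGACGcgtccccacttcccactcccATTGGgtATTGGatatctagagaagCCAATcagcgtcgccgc
HLA-C, chr6:31272132-31272272, minus strand, 180 to 40 bases before the start: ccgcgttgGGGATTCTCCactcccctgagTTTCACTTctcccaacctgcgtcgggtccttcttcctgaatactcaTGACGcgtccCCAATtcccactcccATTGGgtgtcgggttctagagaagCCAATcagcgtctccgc
HLA-F, chr6:29723254-29723394, plus strand, 180 to 40 bases before the start: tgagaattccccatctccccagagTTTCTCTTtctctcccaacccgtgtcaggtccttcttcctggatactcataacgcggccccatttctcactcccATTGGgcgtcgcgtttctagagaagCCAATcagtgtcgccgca
TAP1, chr6:32853744-32853844, minus strand, 140 to 40 bases before the start: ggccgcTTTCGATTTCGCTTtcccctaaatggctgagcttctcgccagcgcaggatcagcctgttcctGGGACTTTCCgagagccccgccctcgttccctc
TAP2, chr6:32838759-32838859, minus strand, 120 to 20 bases before the start: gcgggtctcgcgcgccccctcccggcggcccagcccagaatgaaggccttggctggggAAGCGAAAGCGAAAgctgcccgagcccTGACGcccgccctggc
TAPBP, chr6:33314079-33314178, minus strand, 100 to 1 bases before the start: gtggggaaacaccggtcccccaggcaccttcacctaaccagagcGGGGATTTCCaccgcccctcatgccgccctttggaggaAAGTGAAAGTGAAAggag

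The interferon regulatory factor core was present within 250 bases before the start in HLA-B, HLA-C, HLA-F, TAP1, TAP2, TAPBP and, at the second of its 2 promoters, ERAP1, and in 20.3% of 35116 RefSeq promoters of 27305 genes. In TAP1, TAP2, TAPBP and ERAP1 it lay as a pair of overlapping matches, and in HLA-B, HLA-C and HLA-F as a single match, which in HLA-B and HLA-C followed the NF-kB element. CCAAT was present in HLA-B, HLA-C, HLA-F, TAP1 and ERAP1, and in 32% of all promoters. TGACG was present in HLA-B, HLA-C and TAP2, and in 21.2% of all promoters. The NF-kB consensus was present in HLA-B, HLA-C, TAP1, TAPBP and ERAP1, and in 9.96% of all promoters. TAP1 and ERAP1 each had 2 promoters, and a gene was listed where at least 1 promoter held the element. All TAP1 matches lay at its first promoter and none at its second. The CCAAT and NF-kB matches of ERAP1 lay at its first promoter only. The shares of all promoters are counted per promoter, so the genes listed cannot be weighed against them. HLA-F lacked the exact TGACG and NF-kB letters in this window. Over the 250 bases, the promoters of HLA-B and HLA-C were identical at 91.9% of aligned bases, HLA-B and HLA-F at 81% and HLA-C and HLA-F at 82.7%. These matches describe the letters only, and binding was not measured.

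The order of the 9 genes by level was taken per kilobase of the canonical transcript, since longer transcripts give more reads. In control, HLA-C stood highest at 267 ± 20.1 CPM per kb (SD, n = 2), followed by HLA-B at 115 ± 7.53, and both are classical heavy chains that present peptides to CD8 T cells. HLA-E, whose product carries leader peptides of other class I chains to natural killer cell receptors, stood at 37.6 ± 0.362 CPM per kb. TAP1 at 24.8 ± 0.133 and TAPBP at 24.6 ± 0.192 CPM per kb were neighbours that did not differ beyond their spread. HLA-F, a non-classical chain, followed at 15.1 ± 1.36 CPM per kb, then TAP2 at 8.39 ± 0.294 and ERAP1 at 7.82 ± 0.357. NLRC5 was the lowest at 1.40 ± 0.305 CPM per kb. In acidosis HLA-C remained at the top with 622 ± 42.6 CPM per kb (SD, n = 3) and NLRC5 at the bottom with 3.82 ± 0.536. HLA-F at 34.0 ± 6.50, TAP1 at 34.3 ± 3.11 and TAPBP at 37.9 ± 1.87 CPM per kb then had overlapping ranges of mean ± SD. The ranges of TAP2 at 9.50 ± 1.84 and ERAP1 at 9.57 ± 0.552 also overlapped.

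**Figure D1:**
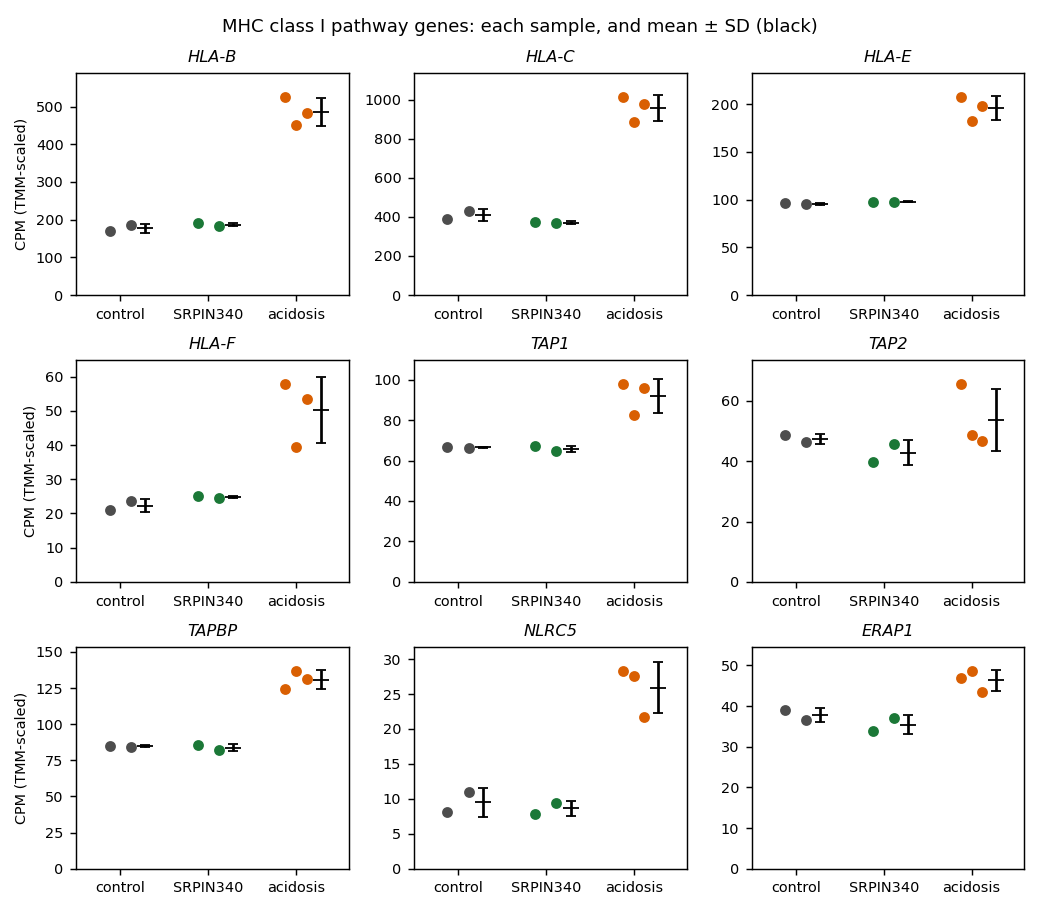
CPM (TMM-scaled, linear axes from 0) of the 9 class I genes in each sample of control (n = 2), SRPIN340 (n = 2) and acidosis (n = 3), with the mean ± SD in black. The 3 acidosis samples lie above both other groups for every gene but TAP2, whose 2 lower acidosis samples lie near the control samples, and the SRPIN340 samples lie near control. The share of all genes separated in this way was not counted.

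Acidosis against control addressed what medium of low pH does to transcripts of HEK-293. In acidosis with TMM scaling, all 4 heavy chain genes and the regulator NLRC5 were more than 2-fold higher than in control. The transporter, loading and trimming genes were less than 1.6-fold higher. With library totals only, TAP2 and ERAP1 passed lower, while TAP1, at a log2 fold change of -0.10, did not pass. All tested genes then had a median of -0.63. That scaling put the heavy chain genes and NLRC5 under 2-fold as well, at log2 fold changes of 0.88 for HLA-B, 0.65 for HLA-C, 0.46 for HLA-E, 0.60 for HLA-F and 0.87 for NLRC5. Of the 9 genes, 8 passed the test higher and 0 lower, and 5 were called higher (adjusted p under 0.05 and log2 fold change over 1). With library totals only, 5 passed higher, 2 lower and 0 were called, and the share of all genes passing under that scaling was not counted. With TMM scaling the background was wide, since 32.5% of all 14863 genes passed higher and 34.2% lower, with 14.4% called higher and 19.1% called lower. The share of all genes with groups that do not overlap was not counted, so such separation is only described gene by gene. The median log2 fold change of the 9 genes was 1.04, beside -0.052 for all genes tested. Adjusted p-values are from the edgeR quasi-likelihood test with Benjamini-Hochberg adjustment over all genes tested. They set each difference against a spread estimated over all groups and in part over other genes, since each group held few samples.

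HLA-B was at 169 and 185 CPM in control and at 525, 450 and 483 CPM in acidosis. Every acidosis sample was thus well above both control samples, and the log2 fold change was 1.46 (SE 0.082, 2.75-fold, adjusted p = 3.14e-07). HLA-C had 389 and 433 CPM in control and 1015, 887 and 977 CPM in acidosis, a log2 fold change of 1.22 (SE 0.0763, 2.34-fold, adjusted p = 6.07e-07). Its groups were again far apart, and HLA-C alone made up 54.6% to 58.7% of the counts of the 4 heavy chain genes in every sample. HLA-E, the ligand of natural killer cell receptors, went from 96.4 and 95.1 CPM to 207, 182 and 198 CPM, which is a log2 fold change of 1.04 (SE 0.0762, 2.05-fold, adjusted p = 1.77e-06). It lies close to the fold limit, and without acidosis replicate 1 its log2 fold change was 0.99, with a limit of 6 CPM on the mean it was 0.98, and 4 genes were then called in place of 5. HLA-F had 20.9 and 23.7 CPM in control and 57.9, 39.4 and 53.5 CPM in acidosis. Its acidosis samples were the most spread of the heavy chain genes but all lay above control, with a log2 fold change of 1.18 (SE 0.161, 2.26-fold, adjusted p = 0.000122).

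Summed over the 6 class I heavy chain genes of the table, which does not depend on how reads were split between them, the level was 940 ± 51.9 CPM in control (SD, n = 2) and 2263 ± 140 CPM in acidosis (n = 3). The log2 fold change of the sum was 1.27 (SE 0.0675, adjusted p = 2.34e-07, edgeR). HLA-B, HLA-C, HLA-E and HLA-F together took 0.0791% and 0.0871% of all deposited counts in the control samples and 0.142%, 0.125% and 0.134% in the acidosis samples. This share uses no TMM factor, and its groups did not overlap. Of 3 further genes for class I chains, HLA-G did not pass the filter (2 counts in its lowest control sample). The other 2 were both called higher, with a median log2 fold change of 1.42.

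NLRC5, the class I transactivator, had 8.05 and 11.0 CPM in control and 28.3, 27.6 and 21.7 CPM in acidosis. Its groups did not overlap, and its log2 fold change was 1.44 (SE 0.192, 2.72-fold, adjusted p = 0.000103). The heavy chain genes were at 1.46 for HLA-B, 1.22 for HLA-C, 1.04 for HLA-E and 1.18 for HLA-F, and a link to NLRC5 was not tested.

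The peptide supply genes moved less. TAP1, a subunit of the transporter, had 66.7 and 66.2 CPM in control and 97.9, 82.5 and 95.7 CPM in acidosis (log2 fold change 0.47, SE 0.0926, adjusted p = 0.00132). Its groups did not overlap, but with library totals only the value was -0.10 (adjusted p = 0.31). TAP2, the partner subunit, was at 48.5 and 46.2 CPM in control and 65.6, 48.5 and 46.8 CPM in acidosis, and only acidosis replicate 1 stood apart. TAP2 did not pass the test (log2 fold change 0.18, SE 0.147, adjusted p = 0.291) and was lower with library totals only (-0.39, adjusted p = 0.0353). TAPBP, which holds empty heavy chains at the transporter, went from 85.2 and 84.3 CPM to 124, 137 and 131 CPM, with groups well apart. Its log2 fold change was 0.62 (SE 0.0753, adjusted p = 5.12e-05), and 0.049 (adjusted p = 0.584) with library totals only. ERAP1, the aminopeptidase that trims peptides in the endoplasmic reticulum, had 39.1 and 36.6 CPM in control and 46.8, 48.7 and 43.4 CPM in acidosis. Its groups lay close but did not overlap, and its log2 fold change was 0.29 (SE 0.100, adjusted p = 0.0277). The ERAP1 result was the least firm of those that passed: the adjusted p was 0.177 without control replicate 2, 0.0622 without control replicate 1, 0.0539 without acidosis replicate 1 and 0.0576 without acidosis replicate 2, and the direction turned with library totals only (-0.29, adjusted p = 0.0291). HLA-B, HLA-C, HLA-E, HLA-F and NLRC5 were higher under every scaling tried.

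**Figure D2:**
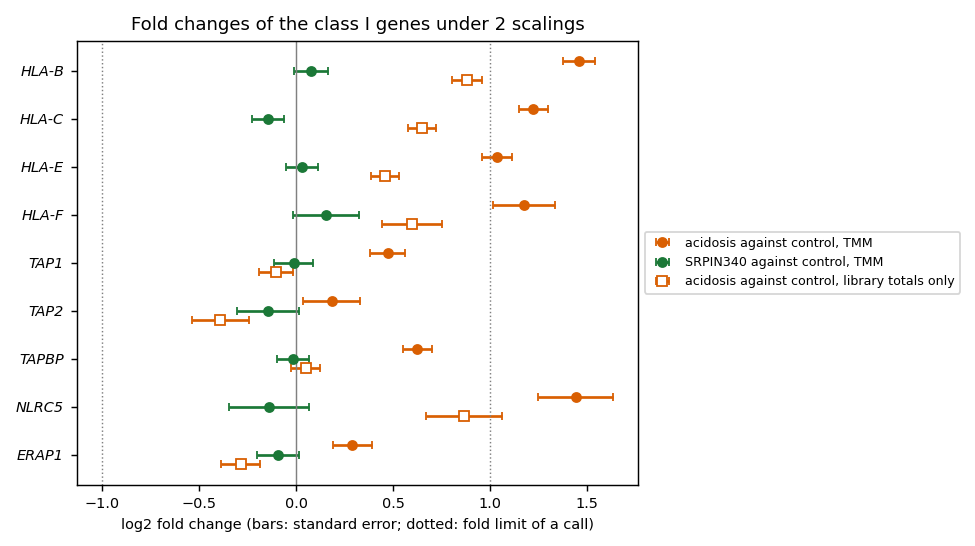
Log2 fold change against control, with its standard error as bars, for the 9 class I genes: acidosis with TMM scaling (filled orange), SRPIN340 with TMM scaling (green) and acidosis with library totals only (open squares). Dotted lines mark the fold limit of a call. With library totals only, TAP1 (which did not pass), TAP2 and ERAP1 fall below 0 while the heavy chain genes and NLRC5 stay above it.

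Ratios between genes within a sample are free of any library scaling. They show whether the parts of the pathway moved equally. Across 11 ratios, the exact permutation test (two-sided) had 10 arrangements of 3 acidosis and 2 control samples, so the smallest p it can give is 0.1, and the Benjamini-Hochberg adjusted p over the 11 is then 0.1375. No ratio could pass at this size. HLA-B counts were 2.53 and 2.80 times those of TAP1 in the control samples and 5.05 to 5.45 times in acidosis, a rise of the mean log2 ratio by 0.99 (exact permutation p = 0.1). HLA-C to TAP1 went from 5.83 and 6.54 to between 10.2 and 10.8, or 0.76 on the log2 scale (exact permutation p = 0.1). In both, every acidosis sample lay above both control samples. HLA-B to ERAP1 differed by 1.17 on the log2 scale (exact permutation p = 0.1).

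Ratios among the heavy chain genes were also taken. HLA-B to HLA-C was 0.428 and 0.434 in control, 0.4996 and 0.506 with SRPIN340 and 0.494 to 0.518 in acidosis. Every acidosis sample lay above both control samples (0.23 on the log2 scale, exact permutation p = 0.1). The SRPIN340 samples lay above them too, but ratios with SRPIN340 were not tested, and the split of reads between these paralogs is uncertain. HLA-E to HLA-C differed by -0.19 (exact permutation p = 0.1) and HLA-F to HLA-C by -0.067 (exact permutation p = 0.9, adjusted p = 0.9), with overlapping groups for the latter. With SRPIN340 these ratios lay above control as well. HLA-E to HLA-C was 0.220 and 0.248 in control, 0.260 and 0.267 with SRPIN340 and 0.203 to 0.206 in acidosis. HLA-F to HLA-C was 0.0537 and 0.0548 in control and 0.0667 in both SRPIN340 samples. Between the transporter subunits, TAP1 to TAP2 was 1.38 and 1.43 in control and 1.49 to 2.05 in acidosis (0.30 on the log2 scale, exact permutation p = 0.2, adjusted p = 0.244). TAPBP to TAP1 was 1.27 to 1.28 in control and 1.27 to 1.66 in acidosis (exact permutation p = 0.5, adjusted p = 0.55), and these groups overlapped.

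TAP1 and PSMB9, which encodes an interferon-inducible catalytic subunit of the immunoproteasome, are neighbours transcribed away from each other from a common promoter region. TAP1 to PSMB9 was 19.1 and 21.8 in control, 19.4 and 20.1 with SRPIN340 and 65.1 to 182 in acidosis, a difference of 2.63 on the log2 scale (exact permutation p = 0.1). PSMB9 held as few as 5 counts in an acidosis sample, so the upper ratio is imprecise.

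**Figure D3:**
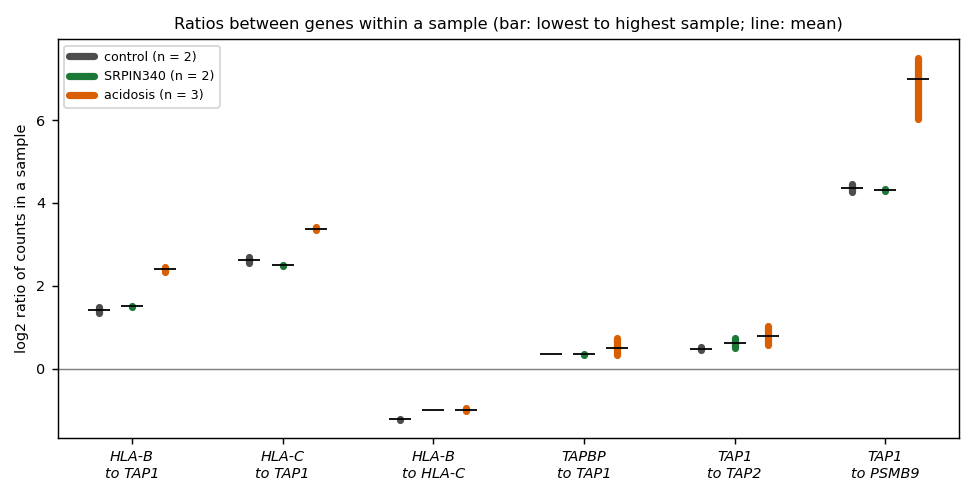
Log2 ratio of the counts of a pair of genes in the same sample, drawn as the range from the lowest to the highest sample with the mean as a line, for control (n = 2), SRPIN340 (n = 2) and acidosis (n = 3). HLA-B to TAP1 and HLA-C to TAP1 rise by 0.99 and 0.76 in acidosis, and TAP1 to PSMB9 by 2.63.

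SRPIN340 against control addressed the effect of the kinase inhibitor at normal pH. With SRPIN340, 0 of the 9 genes passed the test in either direction, and 0 were called. The background was also small, with 0.767% of all genes passing higher and 1.53% lower, and 0.128% called higher and 0.195% called lower. Log2 fold changes of the 9 genes ran from -0.15 (TAP2) to 0.15 (HLA-F), with standard errors from 0.0805 (HLA-C) to 0.206 (NLRC5), adjusted p from 0.398 (HLA-C) to 0.972 (TAP1) and a median of -0.016, beside 0.0024 for all genes. HLA-B was at 190 and 183 CPM with SRPIN340, and HLA-C at 376 and 367 CPM. HLA-B thus lay at the upper end of control and HLA-C just under it. TAP1 at 67.0 and 64.8 CPM and TAPBP at 85.4 and 82.3 CPM spanned their control values, HLA-E stood at 97.7 and 97.9 CPM, and HLA-F at 25.1 and 24.5 CPM was slightly above control. TAP2 at 39.8 and 45.8 CPM, NLRC5 at 7.89 and 9.41 CPM and ERAP1 at 33.8 and 37.1 CPM had lower means than control. The summed heavy chains were at 911 ± 15.7 CPM (SD, n = 2), a log2 difference of -0.046 (SE 0.071, adjusted p = 0.801, edgeR). With 2 samples a group, changes of the size seen for NLRC5 or TAP2 were not detectable, and a missed threshold does not show that levels were equal.

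Acidosis against SRPIN340 shares its acidosis samples with the first comparison. Here 8 of the 9 genes passed higher and 0 lower, beside 32.8% of all genes higher and 35% lower, and 5 were called higher, beside 14.9% called higher and 19.7% called lower (5 passed higher and 0 were called with library totals only). The genes called were again the 4 heavy chain genes and NLRC5, with log2 fold changes of 1.38 for HLA-B, 1.37 for HLA-C, 1.00 for HLA-E, 1.02 for HLA-F and 1.58 for NLRC5. HLA-E and HLA-F sat at the fold limit, and 3 genes were called without acidosis replicate 1 or without acidosis replicate 3. TAPBP was at 0.64, TAP1 at 0.48 and ERAP1 at 0.38 (adjusted p = 4.2e-05, 0.00112 and 0.00706, edgeR), of which TAP1 and ERAP1 turned to -0.13 and -0.23 with library totals only. Without SRPIN340 replicate 1, ERAP1 did not pass (0.31, adjusted p = 0.0848). TAP2 was at 0.33 and did not pass (adjusted p = 0.0725), although it did without acidosis replicate 2 (0.0424) or acidosis replicate 3 (0.0346). The summed heavy chains differed by 1.31 (SE 0.0677, adjusted p = 1.9e-07).

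Other genes of the pathway moved in both directions. Counts for the lists that follow are for acidosis against control with the edgeR test. With TMM scaling they are read against the same background, 32.5% of genes passing higher and 34.2% lower. For counts with library totals only that share was not counted, and all tested genes then had a median log2 fold change of -0.63. Of 5 genes for the interferon-inducible proteasome subunits and the PA28 activator, 2 passed higher and 2 lower (1 and 2 with library totals only). The 2 that rose encode PA28: PSME1 went from 80.7 ± 6.01 to 144 ± 7.69 CPM (SD, n = 2 and 3; log2 fold change 0.83, adjusted p = 1.32e-05) and PSME2 from 47.1 to 72.7 CPM (0.62, adjusted p = 0.00012), which PSME2 did not keep with library totals only (0.049, adjusted p = 0.624). The 2 that fell encode catalytic subunits: PSMB9 went from 3.26 ± 0.287 to 0.831 ± 0.557 CPM (-1.98, adjusted p = 0.00264). PSMB8, named after its value was seen, went from 6.30 to 3.27 CPM (-0.93, adjusted p = 0.0104). Of the 3 constitutive catalytic subunits, PSMB6 passed lower (-0.79, adjusted p = 0.000147), and PSMB7 at 0.044 and PSMB5 at 0.16 did not pass, while all 3 passed lower with library totals only.

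Of 7 chaperones and editors of peptide loading and heavy chain folding, 6 genes were tested, 5 passed higher, 0 lower and 3 were called, with a median log2 fold change of 0.91 (0.34 with library totals only, when 3 passed higher and 1 lower). HSPA5, the general chaperone BiP of the endoplasmic reticulum, went from 451 ± 17.4 to 6059 ± 110 CPM (log2 fold change 3.75, adjusted p = 3.05e-10). CALR, the calreticulin of the loading complex, went from 770 ± 9.66 to 2039 ± 79.0 CPM (1.41, adjusted p = 4.82e-08), and PDIA3, the oxidoreductase ERp57 bound to tapasin, from 362 ± 55.5 to 894 ± 55.2 CPM (1.31, adjusted p = 1.69e-06). In SRPIN340 against control, 1 of these 6 genes passed higher and 2 lower, beside 0.767% and 1.53% of all genes. The 2 lower were CALR (-0.51, adjusted p = 0.0056, edgeR) and HSPA5 (-0.35, adjusted p = 0.0227). The list of cytosolic peptidases, most of which trim or destroy peptides before transport, was mixed, with 2 of 8 higher, 4 lower and a median of -0.39 (0 higher and 6 lower with library totals only). LAP3, an interferon-inducible leucine aminopeptidase, fell (-1.24, adjusted p = 1.48e-05), while BLMH at 0.63 (adjusted p = 4.93e-05) and LNPEP, which encodes a membrane-bound endosomal aminopeptidase, at 0.59 (adjusted p = 0.000136) rose with TMM scaling but were at 0.058 and 0.0100 with library totals only.

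The 18 regulators of class I promoters and of the interferon response split evenly, 6 higher and 6 lower, with a median log2 fold change of -0.12 (3 higher and 11 lower with library totals only). STAT2, a transcription factor of the interferon response, fell from 73.0 to 29.8 CPM (-1.30, 2.45-fold lower, adjusted p = 1.11e-06). ATF1, a factor that binds cyclic AMP response elements, rose from 22.1 to 67.3 CPM (1.61, adjusted p = 6.02e-07). With SRPIN340, 3 regulators passed lower and 0 higher. IRF9, a DNA-binding factor that works with STAT2, was called lower there, from 47.0 to 21.5 CPM (-1.13, adjusted p = 0.00831), and it also fell in acidosis (-0.88, adjusted p = 0.000263). The 3 comparisons share samples, so their values are set side by side only.

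Genes that act on class I molecules after assembly, and ligands read by the same killer cells, were counted in the same way. Of 8 factors of class I turnover, 7 were tested, 3 passed higher and 3 lower, with a median of -0.19 (1 higher and 4 lower with library totals only). MARCHF9, a ubiquitin ligase that removes class I from the surface, rose (0.93, adjusted p = 3.93e-05), while UBE2J2 (-0.86, adjusted p = 9.82e-05) and TMEM127 (-0.62, adjusted p = 0.000325) fell. Of 8 ligands of NKG2D, the activating receptor of natural killer cells, 5 passed higher, 0 lower and 4 were called, with a median of 0.99 (4 higher and 1 lower with library totals only). ULBP1 rose from 52.4 ± 2.35 to 248 ± 7.73 CPM (2.24, adjusted p = 1.93e-08), MICB from 38.5 ± 3.26 to 100 ± 5.13 CPM (1.38, adjusted p = 1.08e-06) and ULBP2 from 8.76 to 28.9 CPM (1.72, adjusted p = 9.83e-06), and these 3 stayed higher with library totals only.

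Of 5 class I-like molecules, 2 passed higher and 0 lower (1 higher and 2 lower with library totals only): PROCR, the protein C receptor, at 1.18 (adjusted p = 3.28e-05), and FCGRT, the neonatal Fc receptor, at 0.41 (adjusted p = 0.0219), which was -0.16 with library totals only. The MHC class II pathway, which professional antigen-presenting cells use, summed to 102 to 112 CPM in control, 124 to 135 CPM with SRPIN340 and 99.6 to 110 CPM in acidosis. Of its 12 genes, 11 were tested, 3 passed higher and 2 lower in acidosis (0 higher and 3 lower with library totals only), and HLA-DRA was not tested. HLA-DMB, an editor of class II peptides, fell from 11.9 ± 1.53 to 0.776 ± 0.397 CPM (-3.84, adjusted p = 1.67e-06), HLA-DPB1 fell (-0.87, adjusted p = 0.000828), and CD74, the invariant chain, was at 1.02 CPM in control and 2.56 CPM in acidosis (1.33, adjusted p = 0.011, and 0.0955 with library totals only).

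**Figure D4:**
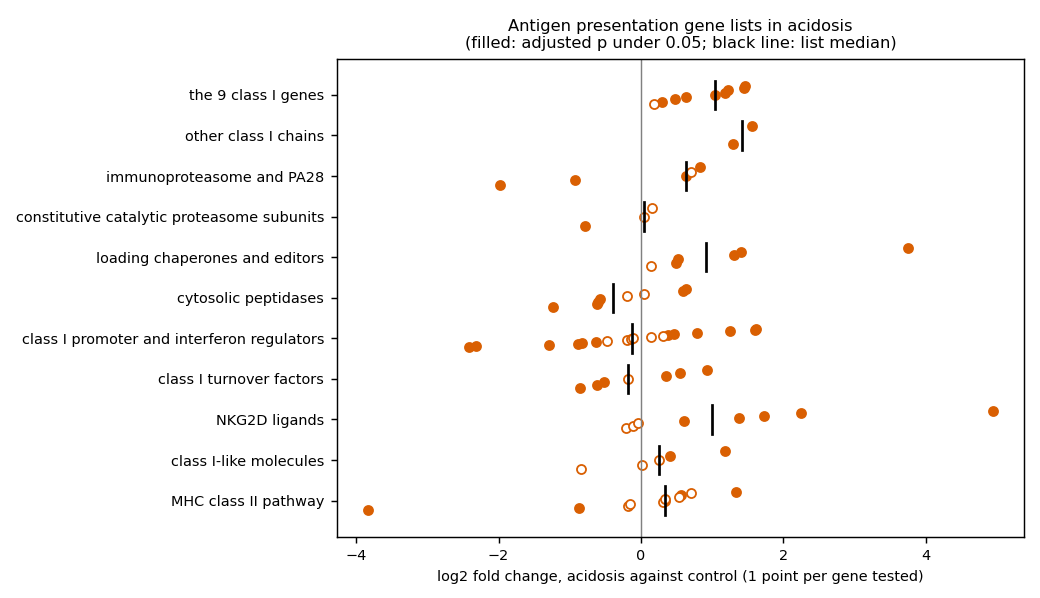
Log2 fold change of acidosis against control (TMM scaling) for each tested gene of the 9 class I genes and 10 other lists, filled where the adjusted p was under 0.05, with the list median as a black line. All 9 class I genes lie above 0 (median 1.04), whereas the regulators (median -0.12) and the peptidases (median -0.39) lie on both sides. With library totals only, TAP1 (which did not pass), TAP2 and ERAP1 lie below 0.

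The genes whose level followed each class I gene most closely over the 7 samples were sought among 10110 other genes of at least 10 CPM. The measure was the distance between log2 profiles, each centred on its control mean. HLA-C was nearest to TRMT112 (distance 0.0575) and REXO1 (0.0899), and HLA-B to RPL38 (0.112). HLA-E was nearest to PCBD1 (0.119) and SLC41A3 (0.122), and HLA-F to PPP1R37 (0.201) and ATP5MK (0.214). For TAPBP they were SPCS1 (0.0663), a subunit of the signal peptidase, and ANAPC13 (0.085), and for TAP1 FAM50A (0.092) and DDIAS (0.121). TAP2 was nearest to ZNF343 (0.213) and ERCC1 (0.22), ERAP1 to ZNF622 (0.131), and NLRC5 to NEU3 (0.26) and ITPRID2 (0.315). The 9 genes were left out of that search, and the nearest of the 9 to each of them lay farther away. The 9 genes offer far fewer candidates than the 10110, so the 2 kinds of distance cannot be weighed against each other. The profiles paired HLA-E with HLA-F (0.405), TAP1 with TAPBP (0.394) and TAP2 with ERAP1 (0.431), while the nearest of the 9 to NLRC5 was HLA-B (0.52). With 3 groups of samples such distances mainly restate the group means, and they carry no test.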

How the data were processed

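RNA-seq of 7 HEK-293 samples was analysed from the deposited table. Per the study's methods and the submitters' processing notes, the authors trimmed reads (Trimmomatic 0.39, Trim Galore 0.6.6), quantified transcripts with Salmon 1.5.1 against Gencode GRCh38.p13 and used tximport to sum to genes. The table deposited thus holds estimated counts of 1 gene per row, without normalization; the tximport option and strand setting are not given in the sources used here. Salmon shares reads that match several transcripts, which bears on the near-identical class I genes.

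Counts were rounded and tested with edgeR 4.0.16 (limma 3.58.1, R 4.3.3): TMM, filterByExpr, quasi-likelihood test, 1 fit of all 7 samples by group. Benjamini-Hochberg adjustment ran over 14863 genes. A gene passed at an adjusted p under 0.05 and was called at an absolute log2 fold change also over 1. DESeq2 1.42.0 was an alternative. Gene names came from identifiers in 19977 of 19978 rows, positions and lengths from GENCODE release 44, promoters from RefSeq (Python 3.11.15, Biopython 1.88; figures with matplotlib 3.10.9). The fits were tested on simulated data. Groups follow the labels, and same-numbered samples were not paired (correlations of deviations from -0.146 to 0.0715). All replicate pairs differed by more than sampling noise. The 9 genes, the other lists and the ratios were chosen with earlier results of these data known. From each other list, the 3 genes with the smallest adjusted p in acidosis were named, and any called with SRPIN340. Single values of some genes of these lists, nearest genes and ratios are not reported here. Alternatives concerned the fold limit, tool, scaling, filter, a replicate block, which samples were fitted, each sample left out and a ratio to TBP.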

Additional observations from a re-analysis of the deposited data

How the results depend on the processing

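Among alternatives for single genes, 115 of 135 values for acidosis against control counted as the same. The numbers were 127 of 135 for SRPIN340 against control and 118 of 135 for acidosis against SRPIN340. A tested value counted as the same if it kept its direction and side of the threshold. A ratio to TBP, which had no test, counted as the same if it lay within the SD of that ratio from the main value. Scaling by library totals only changed most. In acidosis against control, 5 of the 9 genes then passed higher, 2 lower and 0 were called higher (median log2 fold change 0.46), TAP1 was at -0.10, TAP2 at -0.39 and ERAP1 at -0.29, and all genes called numbered 814 higher and 5207 lower in place of 2145 and 2840, so that 13.5% of calls were higher in place of 43.0%. In acidosis against SRPIN340, 5 passed and 0 were called higher, TAP1 was at -0.13, TAP2 at -0.29 and ERAP1 at -0.23, with 775 genes called higher and 5511 lower. In SRPIN340 against control, TAP1 was at 0.028 and TAPBP at 0.024, so their small negative values turned. RLE size factors and DESeq2 left the medians of the 9 genes in acidosis against control at 1.06. In acidosis against SRPIN340, 3 genes were called higher with no filter on low counts, with a limit of 6 CPM and with the replicate block, in place of 5, and 3 to 5 when a sample was left out. The replicate block left 8 passed and 5 called higher in acidosis against control, and for all genes with SRPIN340 it gave 5 called higher and 22 lower in place of 19 and 29; the samples share only a number. With no fold limit, 4836 genes were higher and 5081 lower in acidosis against control, 114 and 228 in SRPIN340 against control, and 4882 and 5202 in acidosis against SRPIN340. With only the 2 groups compared, 33 genes were called higher with SRPIN340, and leaving out each sample gave 3 to 31 higher and 8 to 36 lower. Leaving out single samples also turned values near 0 in SRPIN340 against control: the summed heavy chains were at 0.0096 and NLRC5 at 0.098 without control replicate 2, and TAP1 was at 0.011 and TAPBP at 0.010 without SRPIN340 replicate 2. The ranges over samples left out were -0.10 to 0.0096 for that sum, -0.35 to 0.098 for NLRC5, -0.035 to 0.011 for TAP1 and -0.042 to 0.010 for TAPBP. In acidosis against control, ERAP1 also missed the threshold with no filter (adjusted p = 0.0568), with only the 2 groups (0.0617) and with the limit of 6 CPM on the mean (0.0548), its adjusted p ranging from 0.0175 with DESeq2 to 0.177. TAP2 passed against SRPIN340 with DESeq2 (0.36, adjusted p = 0.0369). As a ratio to TBP, with no test, the 9 genes were 0.53 (TAP2) to 1.82 (HLA-B and NLRC5) higher in acidosis than in control on the log2 scale. The cause of these changes was not tested beyond the settings named. The depth limits genes with few counts, such as NLRC5 and PSMB9.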
